A study of Mus musculus with 4 samples.

Results

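The regions described are the H3K27ac peaks gained with GATA1 restoration. A gained peak was a peak of the pooled G1E-ER4+E2 list that shared at least 1 bp with a peak of each of the 2 G1E-ER4+E2 replicates and no base with any peak called in G1E cells, in either replicate or in the pooled list. There were 6332 gained peaks among the 26384 peaks of the pooled G1E-ER4+E2 list, or 24.0%. The choice used the presence of peaks in all 6 lists, so this share and everything that follows from the presence of peaks is a description, and no test was made of it.

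G1E is a line of erythroid progenitors of strain 129 derived from mouse embryonic stem cells in which Gata1 was knocked out, and G1E cells were left untreated. G1E-ER4 is a subline of it in which an estradiol-activated GATA1-estrogen receptor fusion stands in for GATA1, and G1E-ER4+E2 cells had received 10 nM estradiol for 24 h. Both groups thus lack endogenous GATA1, each had 2 replicates, and nothing in the labels says whether these were separate cultures. G1E-ER4 cells without estradiol were not analysed here, so the restored GATA1, the estradiol and the derivation of the subline cannot be told apart. Every peak list was on mm9 and gives each peak an enrichment, a linear ratio from the peak caller. Reads were not counted in the lists and sequencing depth is therefore unknown, so enrichment was compared by rank within a list. The enrichment percentile of a peak is the share of its list that had a lower enrichment.

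H3K27ac is the acetylation of a lysine on the tail of histone H3. It is deposited by the acetyltransferases EP300 and CREBBP and is found around active promoters and enhancers. GATA1 is the factor that drives erythroid maturation. It often binds next to TAL1, a basic helix-loop-helix factor, in a complex that is associated with activation of genes for heme synthesis, the red cell membrane and globins.

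Of the TAL1 occupied segments (TAL1 OSs) that the study tested for enhancer activity, 5 tested by transfection lay in gained peaks. Each TAL1 OS is named by a number, and the primer pairs that delimit 4 of these 5 segments are shown here because they fix exactly which DNA in a gained peak was tested. All are written 5′ to 3′, as listed in the study's primer table.

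TAL1_244 forward: ttacatacgcaccactgagtgaggac
TAL1_244 reverse: tgtaggctctgttgcaacctgt
TAL1_2578 forward: gagacactggttcattcctcaa
TAL1_2578 reverse: gctatgtcccttgtattcctagtt
TAL1_3278 forward: tgttgtccttgagagggagcagtt
TAL1_3278 reverse: tttggagcttccaccgattctcct
TAL1_3800 forward: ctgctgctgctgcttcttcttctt
TAL1_3800 reverse: acatttgggaaagtggtcctgctg

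The pairs bound segments of 458 to 672 bp. TAL1_244 is chr1:153800664-153801297, TAL1_2578 is chr2:109749210-109749667 and TAL1_3278 is chr4:134275290-134275961. TAL1_3800 is chr6:72229402-72230032. The values of their peaks are given after those of the whole set. No annotation on mm9 was at hand, so a position was not assigned to a gene, exon or intron unless a tested segment carries a gene's name.

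The count of gained peaks rested on both replicates. Of the pooled G1E-ER4+E2 peaks, 20691 (78.4%) shared a base with a peak in each replicate. Among the 10403 pooled peaks with no base in any G1E peak, 2999 were found in 1 replicate and 1072 in neither, and these were left out. The 14359 pooled peaks found in both replicates but not gained shared a base with a G1E peak, 146 of them only with a peak of a G1E replicate.

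Replicates of the same group differed much less in where peaks lay than the groups did. No base was shared with a peak of the other replicate by 13.5% of G1E-ER4+E2 replicate 1 peaks and by 9.15% of replicate 2 peaks. In G1E cells these shares were 7.46% and 12%. Against a single G1E replicate, 42.5% to 45.3% of the peaks of a G1E-ER4+E2 replicate had no counterpart. In the other direction, 27.1% to 31.2% of the peaks of a G1E replicate had none in a G1E-ER4+E2 replicate. With 2 samples in each group, an exact two-sided permutation test over samples cannot give a p below 0.333.

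The rule was also applied to 1 replicate of each group and looked up in the replicates it had not used. Of 13013 peaks of G1E-ER4+E2 replicate 1 with no peak in G1E replicate 1, 9255 (71.1%) were present in G1E-ER4+E2 replicate 2 and absent from G1E replicate 2. The same held for 34.3% of all peaks of that list. Of 11354 peaks of G1E-ER4+E2 replicate 2 with no peak in G1E replicate 2, 8724 (76.8%) were present in G1E-ER4+E2 replicate 1 and absent from G1E replicate 1, against 35.3% of all peaks of that list. With the G1E replicates exchanged, the shares were 70.3% and 76.4%. A peak that was gained in 1 pair of samples was thus mostly gained in the other pair.

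Gained peaks were of ordinary width. Their median width was 4400 bp, with quartiles of 3000 and 7000 bp and a range of 200 to 50800 bp. The other pooled peaks had a median of 4600 bp, with quartiles of 2800 and 9400 bp and a maximum of 142600 bp. The medians differed by 1 step of the caller's 200-bp window, whereas the upper quartile of the gained peaks was 2400 bp lower. Gained peaks were 12.6% of pooled peaks up to 1 kb wide, 20% of those over 1 and up to 2 kb, 29.4% of those over 5 and up to 10 kb, 5.65% of those over 20 and up to 30 kb, and 2.52% of the 832 peaks wider than 30 kb. The rule drops a peak that shares 1 base with a G1E peak, and a wider peak has more bases to share. How much of the fall with width comes from the rule was not tested. Altogether the gained peaks covered 35.5 Mb of the 200.5 Mb of the pooled list (17.7%).

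Gained peaks ranked low in enrichment. Their median enrichment was 2.37, with quartiles of 2.0 and 2.87 and a range of 1.11 to 14.3, against a median of 3.26 for the other pooled peaks. In percentile of the list the medians were 37.8 and 58.4. Most were in the lower part of the list: 1764 (27.9%) lay at or above the 50th percentile, 203 (3.21%) at or above the 75th and 34 at or above the 90th. Below the 25th percentile lay 1810 (28.6%).

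The share of pooled peaks that were gained was not even along the ranks. With the list divided into 10 classes of equal size by enrichment, it was 21% in the lowest class, rose to 43.2% in class 5 and dropped to 1.29% in the highest, which held 34 gained peaks among 2638. Gained peaks were thus scarcer at both ends than in the lower middle of the list.

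**Figure D1:**
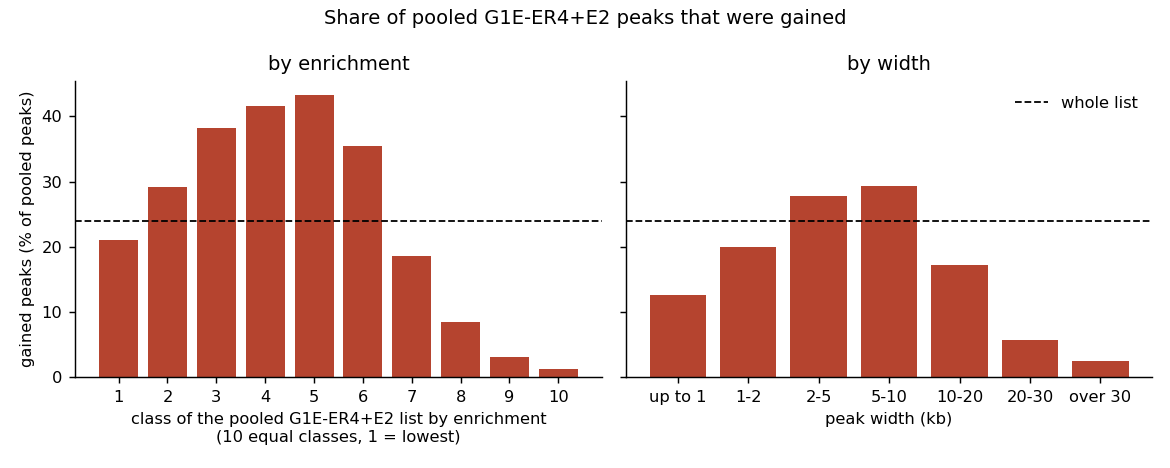
Share of the peaks of the pooled G1E-ER4+E2 list that were gained, by 10 classes of the list in order of enrichment (left) and by peak width in kb (right). The bars give percent of the pooled peaks in each class, and the dashed line is the 24.0% of the whole list. The share peaks at 43.2% in class 5 by enrichment and falls to 1.29% in the highest, and falls to 2.52% in peaks wider than 30 kb.

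The enrichment of the lists themselves differed between the groups. The median was 2.80 in the pooled G1E-ER4+E2 list, 2.98 and 3.59 in its replicates, 5.82 in the pooled G1E list and 6.69 and 7.76 in the G1E replicates. The pooled G1E-ER4+E2 list covered 200.5 Mb and the pooled G1E list 139.9 Mb. How far a difference in the reach of the peak calls between the groups bears on the number of gained peaks was not tested. When the pooled G1E-ER4+E2 list was cut to its most enriched peaks with the same covered length as the pooled G1E list, 2137 peaks were gained.

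On the full lists, the rule with the groups exchanged gave fewer and narrower peaks. Of 24332 pooled G1E peaks, 4308 (17.7%) were present in both G1E replicates and shared no base with a G1E-ER4+E2 peak. They covered 15.7 Mb, with a median width of 2800 bp, and their median enrichment percentile was 44.4 in the G1E list. G1E peaks were narrower as a whole, with a median of 3800 bp in the pooled list against 4600 bp in the pooled G1E-ER4+E2 list. The lists also differ in covered length, so these values stand side by side as a description. The order of the counts depends on this: the 2137 gained peaks at matched covered length were fewer than the 4308. The rule with the groups exchanged was not run on the cut list.

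Both replicates gave the gained peaks a similar rank. Peaks of replicate 1 covered a median of 77.8% of a gained peak and those of replicate 2 a median of 80.0%. Each replicate covered at least 50% of the peak in 4838 cases (76.4%). A gained peak was a single peak in replicate 1 in 87.3% of cases and in replicate 2 in 90.2%. The others were made of up to 6 and 7 replicate peaks. Taking the most enriched replicate peak in each gained peak, the median percentile was 36.7 in replicate 1 and 32.3 in replicate 2, and the median enrichment was 2.51 and 2.75. Over the 6332 peaks the percentiles of the replicates had a Spearman's rank correlation of 0.72 and a Pearson's r of 0.74. The rank of neighbouring peaks is not independent, both replicates went into the pooled list, and these correlations across peaks are given as a description. The median absolute difference between the replicates was 8.56 percentile points, and 1077 gained peaks (17.0%) were at or above the 50th percentile in both.

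**Figure D2:**
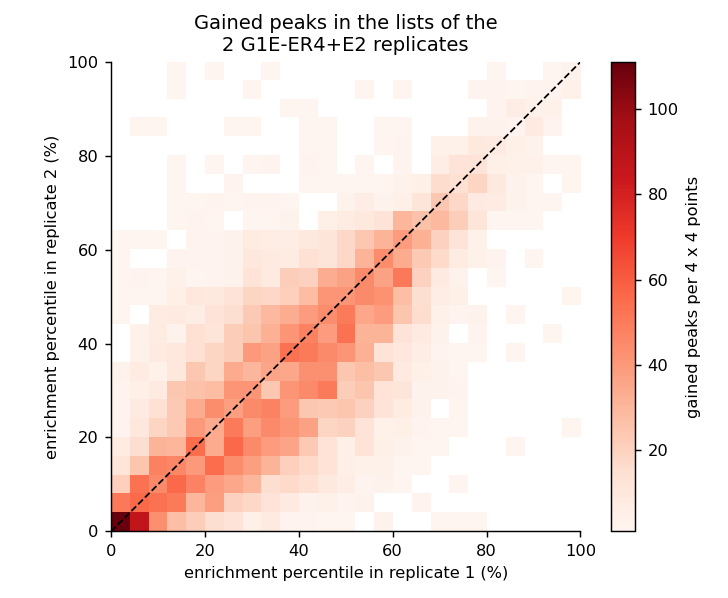
Enrichment percentile of the gained peaks in the list of G1E-ER4+E2 replicate 1 (horizontal, percent) and of replicate 2 (vertical, percent), where the colour gives the number of gained peaks per square of 4 by 4 percentile points and the dashed line is equality. Most of the 6332 peaks lie near the line and below the middle of both lists, with median percentiles of 36.7 and 32.3.

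The median distance from a gained peak to the nearest G1E peak of any list was 11400 bp, with quartiles of 4600 and 26600 bp. Within 10 kb of a G1E peak lay 2943 gained peaks (46.5%), of which 337 were within 1 kb. By the rule with the groups exchanged, 29.5% of the peaks were within 10 kb of a G1E-ER4+E2 peak. Another 3113 (49.2%) were more than 10 and up to 100 kb away. The remaining peaks with a G1E peak on their chromosome were 274 (4.33%) at over 100 kb, 25 of them at over 1 Mb. Gained peaks near and far were alike in size: those within 10 kb had a median width of 4600 bp and a median percentile of 37.0, and those farther away 4400 bp and 38.4. The 274 most distant ones were narrower, with a median width of 2200 bp, and had a median percentile of 48.3.

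**Figure D3:**
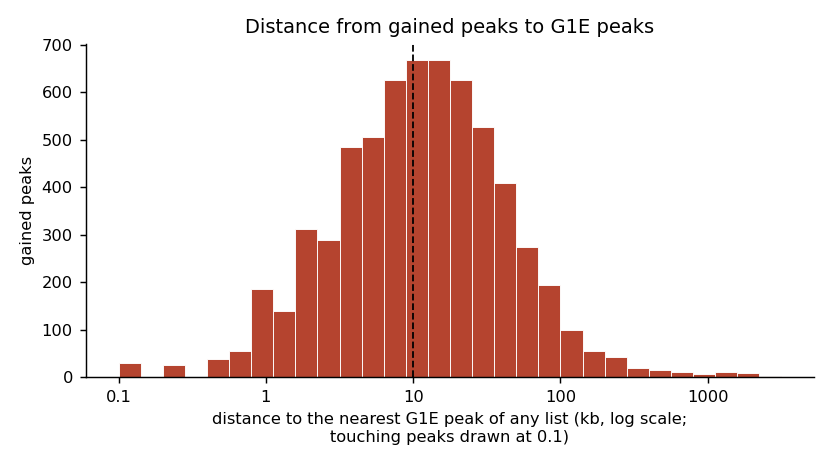
Distance from each gained peak to the nearest G1E peak of any list, in kb on a log scale, with the number of gained peaks per bin on the vertical axis. The dashed line marks 10 kb, within which 2943 gained peaks lie, and the median is 11.4 kb.

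At the edge of the rule, 30 gained peaks touched a G1E peak without sharing a base. These 30 had a median enrichment of 2.19, a median percentile of 30.5 and a median width of 4500 bp. Just outside it, 41 pooled peaks present in both replicates shared only 200 bp with a G1E peak, and their medians were 2.49, 41.7 and 4000 bp.

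Gained peaks lay on every chromosome with pooled peaks. The share of pooled peaks that were gained ran from 18.1% on chromosome 8 (207 of 1143) to 31.5% on chromosome 12 (428 of 1360) among the autosomes. Chromosome 2 followed with 28.3% (656 of 2316), and the share on chromosome X was 19.2% (118 of 615). The replicate lists put chromosomes 12 and 8 in the same places among the autosomes: 54.3% and 49.6% of the peaks of replicates 1 and 2 on chromosome 12 shared no base with a G1E peak, and 30.7% and 28.3% of those on chromosome 8. On chromosome X the replicates were further apart, at 26.4% and 33.3%. Chromosome 12 also had the lowest median enrichment in each G1E list, with 3.56 in the pooled list and 4.13 and 4.75 in replicates 1 and 2. It had 970 pooled G1E peaks beside its 1360 pooled G1E-ER4+E2 peaks. How far this bears on its share of gained peaks was not tested. On chromosome Y both pooled peaks were gained, and no G1E list had a peak there.

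Chromosome X stood apart in enrichment, in gained and other peaks alike. The 118 gained peaks on X had a median enrichment of 5.0 and the 497 other pooled peaks on X one of 8.73, against 2.36 and 3.17 on the autosomes. The higher level was found in both groups: the median of all X peaks was 8.18 and 8.64 in the G1E-ER4+E2 replicates and 15.8 and 15.9 in the G1E replicates. Chromosome 1 was lowest, with a median of 1.81 in gained peaks and 2.26 in the others. Ranked within their own chromosome, gained peaks had a median percentile of 37.7, close to the 37.8 over the whole list. On X that median was 27.4, and on the autosomes it ran from 33.3 on chromosome 10 to 45.3 on chromosome 12.

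**Figure D4:**
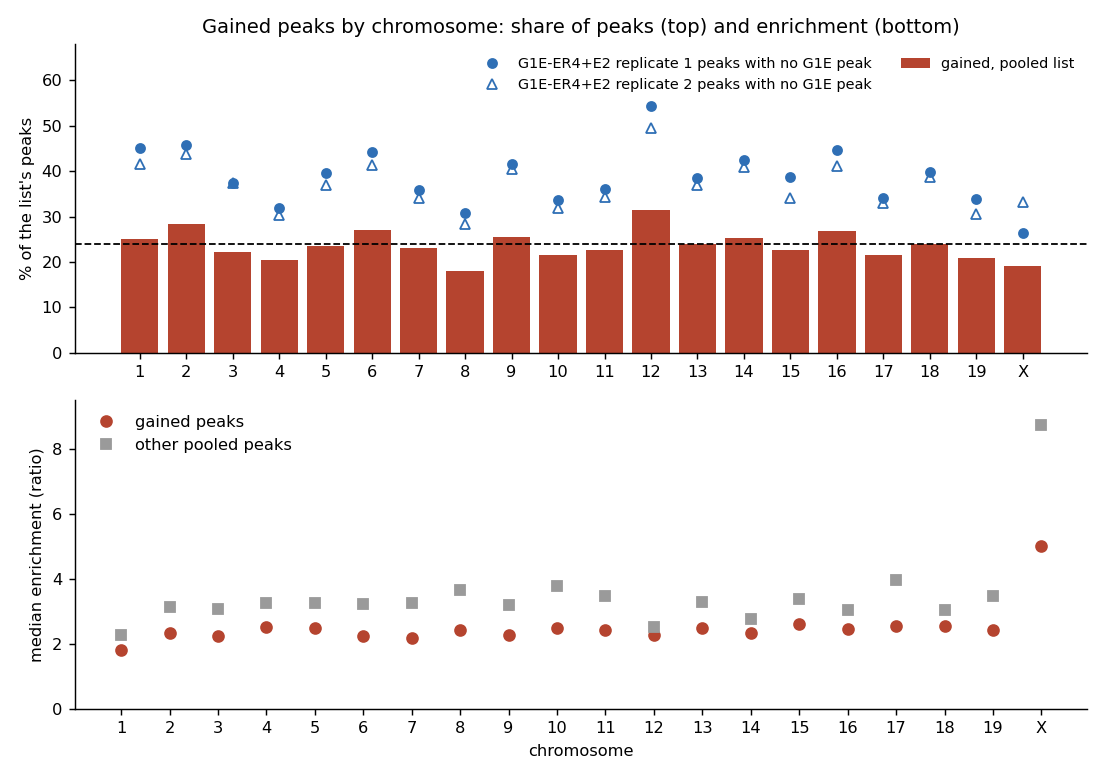
Top: gained peaks as a percent of the pooled G1E-ER4+E2 peaks on each chromosome (bars), with the percent of peaks of each G1E-ER4+E2 replicate that shared no base with a G1E peak (symbols) and the whole-list share of 24.0% (dashed line). Bottom: median enrichment (ratio) of gained and other pooled peaks. Chromosome 12 has the highest bar, at 31.5%, and X has the highest medians, at 5.0 and 8.73.

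The 10 gained peaks with the highest enrichment show both patterns. The first was chrX:148946401-148947400, 1000 bp wide, with an enrichment of 14.3 in the pooled list, 12.6 in replicate 1 and 19.5 in replicate 2. It was 168.6 kb from the nearest G1E peak. On the scale of its own chromosome it ranked at percentile 79.7 rather than 98.7. Of these 10 peaks 4 were on X, and 32 of the 100 most enriched were. Off X, chr6:7933201-7933400 was the smallest peak the caller can give, a single 200-bp window. Its enrichment was 12.4 in the pooled list, 13.1 in replicate 1 and 12.4 in replicate 2.

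Broader strong peaks were found as well. The peak chr10:61979601-61987200, 7600 bp wide and 3200 bp from a G1E peak, had an enrichment of 12.2 in the pooled list, 11.3 in replicate 1 and 18.3 in replicate 2. The peak chr2:151820801-151832000, 11200 bp wide, had 11.5, 12.2 and 13.9. The peak chr3:120955201-120977400 was the widest of the 10, with 22200 bp and an enrichment of 11.2, 12.7 and 14.7. Each was a single peak in both replicates. The one on chromosome 10 lay in a long stretch where every gained peak exceeded 2.47, the median enrichment of gained peaks on that chromosome. Ranking within chromosomes does not allow for such a stretch, and its cause was not tested. The other members of the 10 were chr2:150006801-150008800, chr14:15187401-15189000 and chrX:7317001-7319800, with chrX:11710201-11713800 and chrX:11728801-11730600, which lie close together. Their enrichments ran from 10.2 to 13.8, and the median width of the 10 was 2400 bp. Ranked within chromosomes, no peak on X was among the highest 10, and 22 gained peaks were at or above the 90th percentile.

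The widest gained peaks were of middling enrichment. The widest, chr5:35205601-35256400, spanned 50.8 kb, and peaks of replicate 1 covered 96.1% of it and peaks of replicate 2 88.6%. Its enrichment was 3.76, at percentile 64.5, and the nearest G1E peak was 34.8 kb away. The 10 widest spanned 35.4 to 50.8 kb, with enrichments of 1.97 to 5.83. The strongest of them was chr2:150794401-150839200, a domain of 44.8 kb of which replicates 1 and 2 covered 98.2% and 91.5%. The weakest, chr12:77690801-77733200, was also the most broken up, into 6 and 7 replicate peaks that covered 89.2% and 61.3%. Chromosome 16 had a pair of them, chr16:4147201-4193200 and chr16:4085601-4123600, which lie close together and spanned 46.0 and 38.0 kb. The others were chr1:130010001-130054200, chr12:3456801-3498800, chr5:122211601-122248800, chr9:59262801-59298200 and chr15:80656001-80691400.

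Most gained peaks had another gained peak nearby. With peaks joined when the gap between them was at most 50 kb, 4451 gained peaks (70.3%) fell into 1379 clusters of at least 2, and 1881 had no other gained peak within that distance. When only pooled peaks from the median enrichment upward were used, the 1764 gained peaks formed 252 clusters that held 34.0% of them. There were 235 clusters of at least 5 and 19 of at least 10. Pooled peaks are dense in general, since 93.6% of all of them had another within 50 kb. Read along the list, a gained peak was followed by another gained peak in 32.8% of cases and any other pooled peak was followed by a gained one in 21.2%. The longest run of gained peaks with no other pooled peak between them had 13 members, and 61 runs had at least 5. No test was made of this. Of the 1379 clusters, 764 (55.4%) held no peak of the G1E lists between their ends.

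In windows of 1 Mb with at least 10 pooled peaks, the median share gained was 23.3%, with quartiles of 14.3% and 33.3%. Of 1043 such windows, 32 held no gained peak and in 27 over 50% were gained. The highest share was in chr6:32000001-33000000, with 13 gained of 17.

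That window holds the cluster that covers the most bases. It spanned chr6:32739801-32995400, and its 12 gained peaks covered 161.6 kb of 255.6 kb. No G1E list had a peak inside it. Peaks of replicate 1 covered 134.6 kb of it and those of replicate 2 108.2 kb. The gained peaks were 4200 to 30600 bp wide, and their enrichments ran from 1.68 to 3.58.

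The most members in a cluster were 17, in 2 clusters. The first spanned chr14:87228601-87525800, and its gained peaks covered 151.8 kb of 297.2 kb at enrichments of 1.43 to 2.61, none above percentile 45.3. The pooled G1E list had 1 peak of 1.4 kb there, which was found in G1E replicate 2 and not in replicate 1. The second spanned chr2:91501201-91758200, where gained peaks covered 140.8 kb of 257.0 kb and each G1E list had 3 peaks. Those G1E peaks covered 17.0 kb in the pooled list and 12.6 and 12.4 kb in the replicates. The gained peaks there had enrichments of 1.85 to 3.25 with a median of 2.34, close to the 2.37 of all gained peaks.

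**Figure D5:**
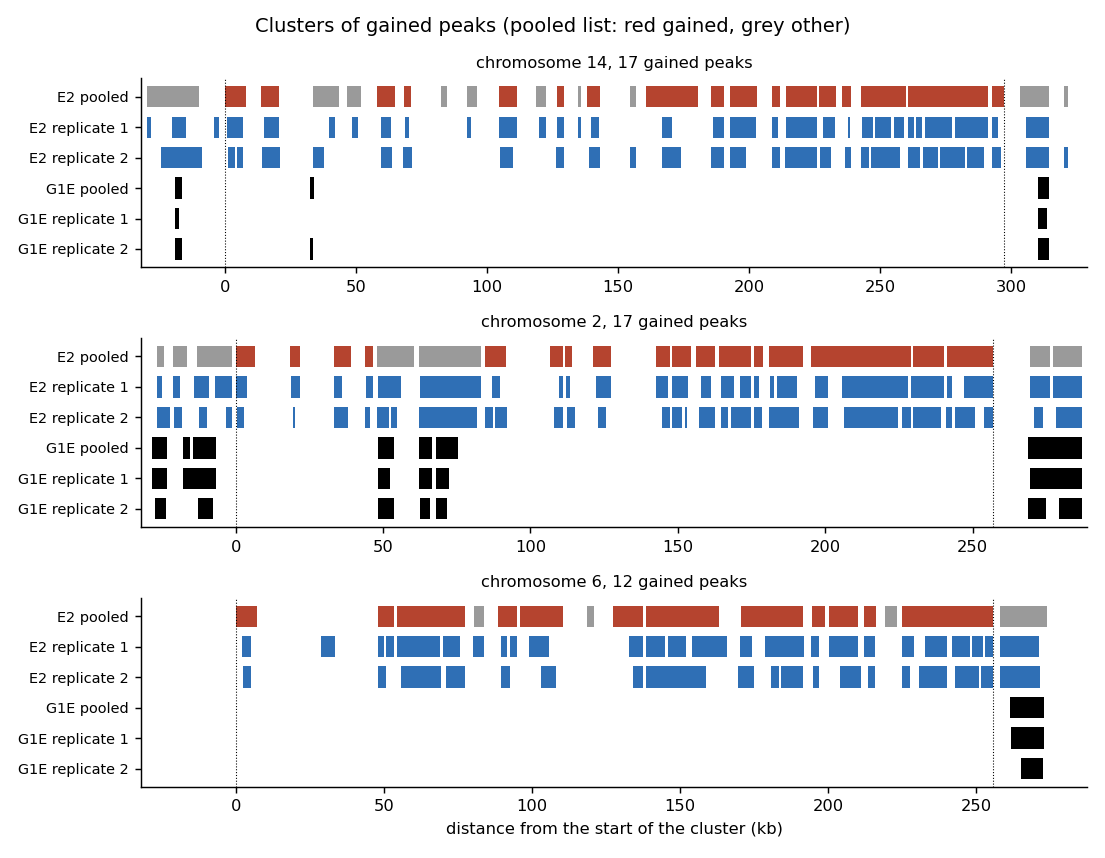
Peaks in the clusters of gained peaks with the most members (chromosomes 14 and 2, with 17 each) and with the most covered bases (chromosome 6, with 12), drawn by distance in kb from the start of the cluster, with dotted lines at its ends. Each row is a peak list, the top one being the pooled G1E-ER4+E2 (E2) list with gained peaks in red and other peaks in grey. G1E rows are empty between the dotted lines on chromosome 6 and hold 3 peaks per list on chromosome 2.

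The study's tested segments connect gained peaks to named DNA. TAL1 OSs were chosen by TAL1 binding in G1E-ER4+E2 cells, so they are not a sample of H3K27ac peaks. Of the 127 TAL1 OSs tested by transfection or in transgenic embryos, 118 shared a base with a pooled G1E-ER4+E2 peak. Of the 127, 9 (7.09%) lay in gained peaks, 109 in pooled peaks that shared a base with a G1E peak and 9 in none. Transfection-tested segments gave 5 of 70 in gained peaks and transgenic ones 4 of 66. Against the 24.0% of pooled peaks that were gained, which held 17.7% of the covered bases, 7.63% of the TAL1 OSs in pooled peaks were in gained ones. The part of peak width in this was not tested. All 9 lay in a peak of both replicates.

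The 9 gained peaks with a TAL1 OS had a median width of 5200 bp (2000 to 9200 bp), a median enrichment of 2.88 (2.04 to 5.24) and a median percentile of 51.8. Over all gained peaks those medians were 4400 bp, 2.37 and 37.8. Of the 9, 6 were at or above the 50th percentile.

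Among the 4 segments with the primers above, 2 were in peaks of higher rank. TAL1_2578 lay in chr2:109748401-109751200, with an enrichment of 5.24 in the pooled list, 4.67 in replicate 1 and 5.81 in replicate 2. Its peak is at percentile 77.0 and 5.6 kb from a G1E peak. TAL1_3800 lay in chr6:72225601-72232600, with 4.79, 5.19 and 7.49, and its nearest G1E peak was 32.4 kb away.

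TAL1_3278 lay in the widest of the 9 peaks, chr4:134272001-134281200, with an enrichment of 2.88 in the pooled list, 3.34 in replicate 1 and 4.24 in replicate 2. A G1E peak was 1.8 kb away. The peak of TAL1_244, chr1:153797201-153802400, was weaker, with 2.04, 2.09 and 2.48, and was 188.4 kb from any G1E peak. It ranked at percentile 24.6 of the list and 48.8 of chromosome 1.

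The 4 TAL1 OSs from transgenic tests were TAL1_1659, TAL1_3020, TAL1_3759 and TAL1_4518. TAL1_1659 (chr15:83353447-83354080) had an enrichment of 3.90 in the pooled list, 3.66 in replicate 1 and 4.87 in replicate 2. TAL1_4518 (chr8:122817262-122818516) was in a peak of 7200 bp with 3.89, 7.06 and 6.65, of which the replicate peaks covered 41.7% and 50%. The pooled call was therefore wider than the replicate calls, and its percentile of 66.0 in the pooled list stood beside 84.3 and 74.5 in those of replicates 1 and 2. TAL1_3020 (chr3:145627289-145627941) had 2.15, 2.34 and 2.16 and lay 4.4 kb from a G1E peak. TAL1_3759 (chr6:50840652-50841395) had 2.82, 3.18 and 2.76 in a peak of 2000 bp, and it was the most isolated, 275.8 kb from any G1E peak.

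Counting all 329 distinct tested segments, 19 (5.78%) lay in gained peaks, each in a peak of its own, 218 in pooled peaks that shared a base with a G1E peak and 92 in none. Of the 237 in a pooled peak, 8.02% were thus in gained peaks. Beside this, 24.0% of pooled peaks were gained, and these held 17.7% of the covered bases. The part of peak width was not tested here either. The 10 that are not TAL1 OSs were Vav2R7, Hipk2R16, Gata2NC2, Hebp1R3 and 6 segments of a survey of chromosome 7, GHP6, GHP105, GHP164, GHP170, GHP310 and GHN159. GHP6, which extended past the start of its pooled peak by 147 bp, and GHN159 lay outside the replicate peaks, 598 bp and at least 2023 bp away from them, so that 17 of the 19 segments were in a peak of both replicates. GHN159 was in the weakest of the 19 peaks, with an enrichment of 1.18. Of the other chromosome 7 segments, GHP310 had an enrichment of 2.85, 2.82 and 4.79 in the pooled list and replicates 1 and 2, and GHP105 had 1.48, 1.37 and 1.63. GHP164 was in a peak only 200 bp from a G1E peak, at 2.64, 2.41 and 2.77. GHP170 belonged to a cluster of 6 gained peaks, at 2.38, 2.52 and 2.31.

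Around the 7 genes with named segments, 18 of 77 pooled peaks were gained (23.4%), near the 24.0% of the whole list. The stretch from the first to the last segment of each was taken with 100 kb on either side, and pooled G1E-ER4+E2 peaks in it were counted. A peak in a stretch was not thereby assigned to the gene. Gata2 had 6 gained of 18, Alas2 4 of 11, Hipk2 4 of 20, Vav2 3 of 7 and Hebp1 1 of 6. Zfpm1 had none of 12 and Btg2 none of 3.

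Gata2 is the gene of a GATA factor of progenitors that GATA1 represses. The 6 gained peaks in the stretch around its tested segments covered 69.6 kb. They lay between chr6:88239601-88246000 and chr6:88366201-88371400, and at the widest distance they were 68.6 kb from a G1E peak. Their enrichments were low, from 1.64 to 2.12, so none was above percentile 27.7. Gata2NC2 (chr6:88272308-88272589) was inside the widest, of 18.2 kb, which had 2.04 in the pooled list, 2.25 in replicate 1 and 2.29 in replicate 2. This was the last tested segment on that side. The other 5 gained peaks held none and lay 16211 to 93611 bp from it.

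Alas2 encodes the erythroid enzyme of the rate-limiting step of heme synthesis, and the gained peaks in its stretch are on X. These peaks lay 4867 to 35694 bp from the nearest tested segment. They covered 30.2 kb and had enrichments of 4.93 to 6.13, at percentiles 74.8 to 82.5 of the list and 26.2 to 40.3 of the chromosome. The most enriched, chrX:146939601-146948600, had 6.13 in the pooled list, 6.82 in replicate 1 and 9.07 in replicate 2. No tested Alas2 segment lay in a gained peak, and 3 of 4 were in peaks that shared a base with a G1E peak.

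Hipk2 encodes a serine/threonine kinase of the nucleus, and the 4 gained peaks in its stretch covered 35.6 kb at enrichments of 2.04 to 2.76. Hipk2R16 (chr6:38721282-38721450) was in one with 2.10 in the pooled list, 2.15 in replicate 1 and 2.06 in replicate 2. Vav2 is the gene of a guanine nucleotide exchange factor, and the gained peaks in its stretch had 2.68, 3.02 and 3.31 in the pooled list. The first of these shared bases with Vav2R7 (chr2:27244975-27245564), which extended past the peak's start by 26 bp. The others lay 3070 and 94870 bp from the nearest tested segment. Hebp1 encodes a heme-binding protein, and Hebp1R3 (chr6:135091566-135092125) was in a peak of 9600 bp with 1.56, 1.81 and 1.67, at percentile 5.93. At Zfpm1, which encodes the GATA1 cofactor FOG1, 23 of 27 tested segments lay in pooled peaks that shared a base with a G1E peak.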

How the data were processed

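H3K27ac ChIP-seq (antibody Ab4729) of 2 untreated G1E and 2 G1E-ER4+E2 samples was analysed from 6 peak lists on mm9. The authors called broad peaks per replicate and on the pooled replicates of each cell line. Each deposited row holds a fold enrichment (a linear ratio) and, as deposited, a p-value and a q-value from the caller, at most 0.01. The submitters' processing notes name bcl2fastq 1.8.4, Bowtie 1.0.0 and SICER 1.1. The control library, filters and pooling are not given in the sources used here.

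Peaks were intersected by at least 1 bp, and distances, ranks and clusters (gap of at most 50 kb) were computed with pandas 2.3.3 and NumPy 2.4.6 under Python 3.11.15, permutation limits and rank correlations with SciPy 1.17.1, and plots with Matplotlib 3.10.9. The intersection was tested on simulated peaks. The p-values and q-values were used only to state their maximum. Segment positions and primers came from the study's tables, and none of its activity values was used. The longer list of TAL1 OSs, at hand only in part, was not used.

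Members, lists and alternatives were chosen with earlier results of these data known. Named in the text were the gained peaks holding a tested segment (1 is not reported here), the 10 most enriched, the 10 widest, the clusters with the most members or bases, and, as groups, the peaks at the edge of the rule. The window of 1 Mb with the highest share, and the gained peaks in the stretches around named segments, were named after their values were seen. The alternatives were a larger overlap, enrichment limits, fewer lists, a 1-kb margin, each replicate left out, other gaps, bases for peaks. Ranking within chromosomes was chosen after seeing the data.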

Additional observations from a re-analysis of the deposited data

How the results depend on the processing

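No paired analysis was possible because no result comes from a test. The depth is unknown, the lists do not give signal outside peaks, and enrichment is comparable only within a list. Of 98 alternative values, 63 stayed within 1.5 times the main count or, for medians and shares, within the SD between the replicate lists.

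With each replicate left out in turn, the number of gained peaks ran from 6361 to 8061, the median width from 4000 to 4400 bp and the median percentile from 32.6 to 37.8. The share within 10 kb of a G1E peak ran from 45.7% to 47.2% and the share with another gained peak within 50 kb from 70.4% to 75.7%, and 9 peaks held a tested TAL1 OS each time.

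Limits on enrichment remove the weaker peaks by construction. With pooled peaks from the median enrichment upward, there were 1764 gained peaks with a median width of 4000 bp and a median percentile of 59.3, of which 42.9% lay within 10 kb of a G1E peak and 34.0% had another within 50 kb. They formed 252 clusters, 8 held a tested segment, and 11 chromosomes were above the share over all chromosomes, against 7 without the limit, leaving out chromosome Y. With the pooled list cut to the covered length of the pooled G1E list, the values were 2137 peaks, 4000 bp, percentile 56.9, 43.8%, 39.3%, 344 clusters, 9 peaks with a tested segment and 11 chromosomes. A tested TAL1 OS lay in 6 peaks under either limit.

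The pooled lists alone gave 10636 gained peaks of median width 3800 bp and median percentile 29.4, of which 80.7% had another within 50 kb, in 2118 clusters. With at least 50% of each peak covered by both replicates, the median width was 4200 bp, the median percentile 41.5 and the share with another within 50 kb 61.9%. With no G1E peak within 1 kb, 43.5% lay within 10 kb of one.

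The mean share of a replicate's peaks with no peak in the other replicate was 10.5%, and it was 1.74% with peaks from the median enrichment upward and 15% with 50% coverage required. The mean share of peaks gained in 1 pair of replicates that were also gained in the other was 73.7%, 82.2% and 69.4% in the same order. Beyond the peaks that each alternative removes or adds, the cause was not tested.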
